A study of Mus musculus with 10 samples.

Results

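The T cell receptor variable, diversity and joining segments are the gene pieces from which each T cell assembles its antigen receptor. They were taken as every row of the expression table whose symbol begins with the name of a numbered segment of the alpha, beta, gamma or delta chain. This gave 210 of the table's 22329 rows. Of these, 136 were variable (V) segments, with 108 of the alpha chain (Trav), 22 of the beta chain (Trbv), 1 of the gamma chain (Trgv) and 5 of the delta chain (Trdv). Another 70 were joining (J) segments, with 51 Traj, 13 Trbj, 4 Trgj and 2 Trdj rows, and 4 were diversity (D) segments, 2 Trbd and 2 Trdd.

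The libraries came from tumours of B16F10, a mouse melanoma line, grown under the skin of C57BL6/J mice from injected cells. Each tumour received 1 injection of 80 µg mRNA and was taken 7 days later. In the 5 control tumours (libraries 1 to 5) the mRNA encoded luciferase. In the 5 cytokine tumours (libraries 6 to 10) 4 mRNAs were mixed at 20 µg apiece, encoding single-chain IL-12, IL-15sushi, GM-CSF and IFN alpha. Values are TPM, a measure of transcript abundance corrected for transcript length and scaled to the same total in each library, and sequencing depth is unknown. The comparison asks which segments differed between the groups. Nothing in the labels says more about replication than separate tumours, so p-values measure the spread between these tumours. The tumours are bulk tissue, so more T cells and more receptor RNA per T cell cannot be told apart.

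As background, a beta or delta chain gene is made by joining a V, a D and a J segment, and an alpha or gamma chain gene by joining a V and a J segment. The joined V(D)J exon is then spliced to a constant segment, so that V, J and constant sequence lie in 1 mRNA. A T cell carries either an alpha-beta or a gamma-delta receptor. The delta segments lie inside the alpha locus and are deleted when the alpha chain is rearranged, whereas rearranged gamma genes can persist and be transcribed in alpha-beta T cells. Many Trav segments of C57BL/6 mice exist as near-identical copies, marked d and n in their symbols, that arose by duplication within the locus.

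The segments differ mainly in length, which bears on every value below. All 210 symbols matched segments annotated as V, D or J genes, not pseudogenes, in GENCODE mouse release 21 (build GRCm38). The 44 further segments that it annotates as pseudogenes are not analysed here. V transcripts there measure up to 595 bases with a median of 376.5, J segments have a median of 60 and reach at most 66, and D segments measure 9 to 16 bases. The following whole J and D segments are shown because they include the rows with the highest TPM of their chains and a D row. Capitals mark the codons of the phenylalanine or tryptophan-glycine-X-glycine motif, which is known as a conserved feature of J segments. The motif was searched on the coding strand only and was found in 57 of the 70 J rows (81.4%) and in the coding bases of 5 of the 136 V rows (3.68%). It was not found in the letters of Trgj2.
Traj27 (alpha J, chr14:54192303-54192361, + strand): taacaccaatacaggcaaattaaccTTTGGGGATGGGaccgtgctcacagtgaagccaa
Trbj2-3 (beta J, chr6:41543223-41543271, + strand): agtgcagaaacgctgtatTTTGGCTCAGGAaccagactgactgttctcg
Trgj2 (gamma J, chr13:19311245-19311304, - strand): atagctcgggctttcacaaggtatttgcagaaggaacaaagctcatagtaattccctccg
Trbd1 (beta D, chr6:41533201-41533212, + strand): gggacagggggc

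The V segments Trgv2 (chr13:19336573-19337167, - strand) and Trbv5 (chr6:41062332-41062803, + strand) were the only members that passed the filter for testing. The last 60 bases of their coding sequence follow, with the last in-frame cysteine codon in capitals. V segments are known to end shortly after a conserved cysteine, at the point where rearrangement joins them to the next segment. Coordinates are GRCm38 from GENCODE, and the build used for the table was not settled.
Trgv2: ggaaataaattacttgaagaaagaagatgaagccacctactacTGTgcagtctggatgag
Trbv5: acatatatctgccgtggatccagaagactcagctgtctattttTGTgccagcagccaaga

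Some libraries stood apart, and results that rest on them are given with and without them. Of 1533 genes for chemosensory receptors, 277 had a value above 0 in library 7, where control libraries had 13 to 23 and the remaining cytokine libraries 21 to 42. Its summed TPM over 8 melanocyte markers was 41.9, against 2604 to 16830 in the other 9 libraries. Mitochondrial rows took 16.2% to 27.9% of the TPM in control and 4.44% to 19.2% in cytokine libraries, with the highest cytokine value in library 10. The melanocyte markers, which define the labelled tumour type, were thus near 0 only in library 7.

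Segments were listed above 0 far more often in the cytokine tumours. The number of segment rows above 0 was 0, 4, 2, 4 and 1 in control libraries 1 to 5, and 23, 37, 34, 26 and 7 in cytokine libraries 6 to 10. Control tumours averaged 2.20 ± 1.79 rows (SD, n = 5) and cytokine tumours 25.4 ± 11.8 rows, or 22.5 without library 7. The groups did not overlap, although library 10 came within 3 rows of the highest controls. Being a count over the chosen rows, it is given without a test. Of the 210 rows, 132 were listed at 0 in all 10 libraries. Of the other 78, 67 were above 0 only in cytokine libraries (85.9%), 2 only in control libraries and 9 in both. Among all 17505 genes above 0 in at least 1 library, 11.7% were above 0 only in cytokine libraries. The share was 83.6% of segment rows without library 7.

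Chemosensory receptor genes, which are silent in most tissues, were also above 0 most often in library 7. The other cytokine libraries did not keep the order of the segment counts. Library 6 listed 42 such genes with 23 segment rows, and library 8 listed 28 with 34. Of 368 such genes above 0 in any library, 83.7% were above 0 only in cytokine libraries, and 56.2% of 137 without library 7. Their part in the segment counts was not tested.

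**Figure D1:**
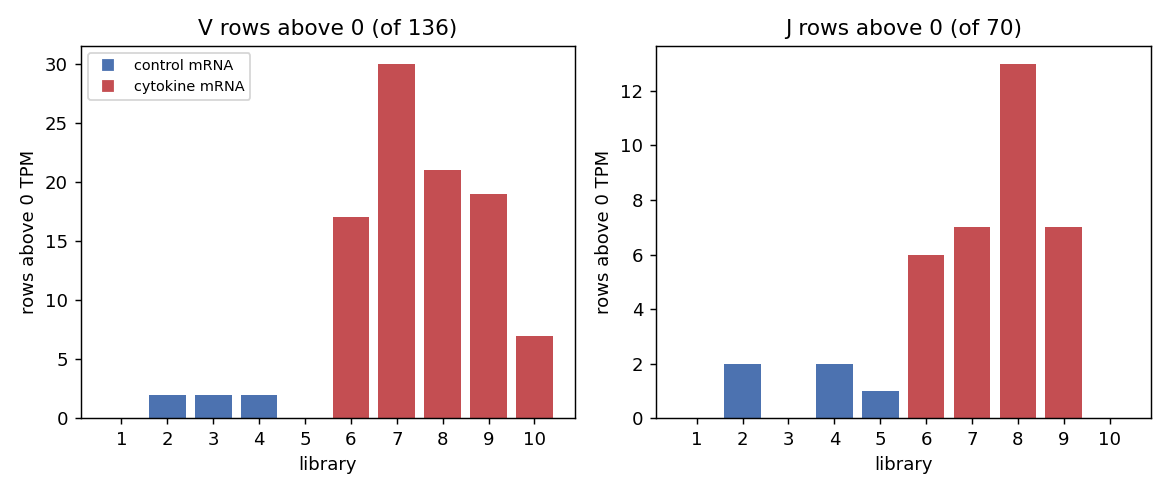
Number of V rows (left, of 136) and J rows (right, of 70) listed above 0 TPM in each library, with control libraries 1 to 5 in blue and cytokine libraries 6 to 10 in red. V rows reach at most 2 in control and 7 to 30 in cytokine libraries, while library 10 lists no J row.

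V and J rows did not follow the same libraries. V rows above 0 numbered 0, 2, 2, 2 and 0 in the control libraries and 17, 30, 21, 19 and 7 in cytokine libraries 6 to 10. J rows above 0 numbered 0, 2, 0, 2 and 1 in the control libraries and 6, 7, 13, 7 and 0 in the cytokine libraries. The V counts of the groups did not overlap, whereas the J counts overlapped because library 10 listed no J row beside its 7 V rows.

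The summed TPM of V rows, whose length is that of ordinary exons, was 0, 3.54, 10.0, 6.64 and 0 in the control libraries. It was 203, 426, 196, 122 and 24.7 in cytokine libraries 6 to 10. The group means were 4.04 ± 4.34 and 194 ± 148 TPM (SD, n = 5), and the cytokine mean was 137 TPM without library 7. All 5 cytokine sums lay above the highest control sum, with library 10 lowest.

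Alpha chain V rows summed to 0, 1.43, 3.76, 3.51 and 0 TPM in the control libraries and to 61.4, 85.0, 33.3, 58.6 and 12.5 TPM in cytokine libraries 6 to 10. The group sums did not overlap. Beta chain V rows summed to 0, 0, 6.24, 3.13 and 0 TPM in control and to 93.9, 240.5, 97.8, 48.9 and 4.27 TPM in cytokine libraries. Here library 10 lay within the control range, and the cytokine mean of 97.1 ± 88.8 TPM fell to 61.2 TPM without library 7. The beta sum exceeded the alpha sum in libraries 6, 7 and 8, by ratios of 1.53, 2.83 and 2.94, and was below it in libraries 9 and 10, at 0.834 and 0.342.

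**Figure D2:**
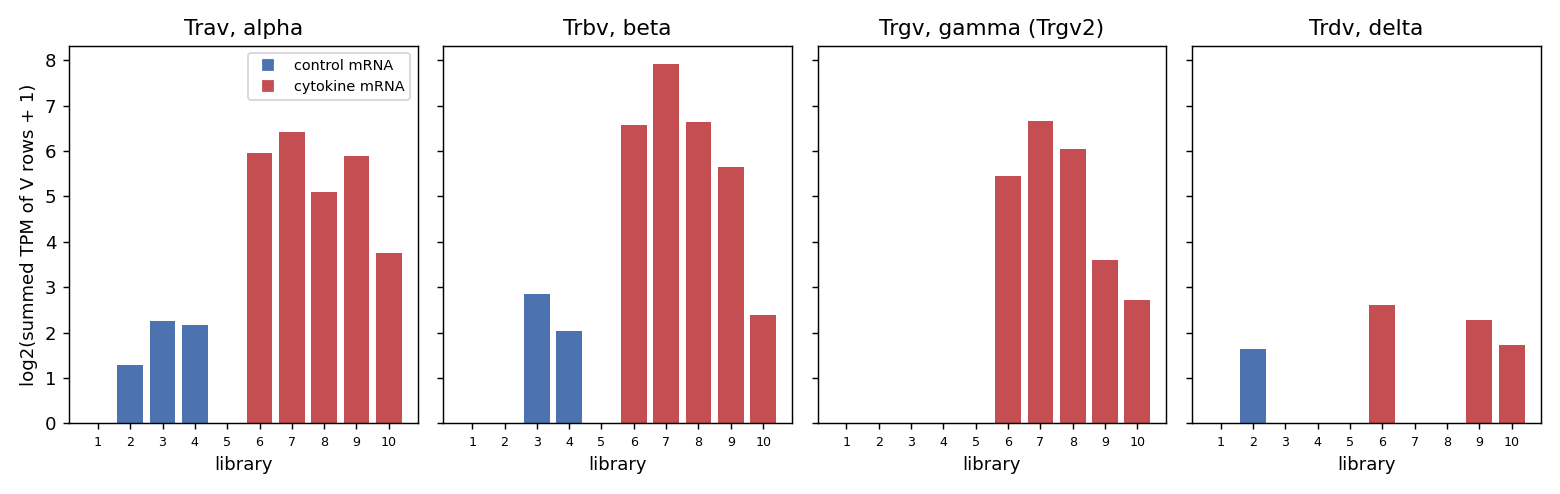
Summed TPM of the V rows of each chain in each library, as log2(summed TPM + 1), with control libraries in blue and cytokine libraries in red. Trgv2 is above 0 in all 5 cytokine libraries and in no control library, and the delta panel overlaps between groups.

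Most alpha V rows were seen in few libraries. Of 108 Trav rows, 31 (28.7%) were above 0 in any library: 19 in a single library, 10 in 2 and 2 in 3 or more. The 2 rows in 3 libraries were Trav5-4 and Trav7-5, and none was above 0 in more than 3 of the 5 cytokine libraries. Trav5-4 was at 0, 11.4, 4.49, 3.09 and 0 TPM in cytokine libraries 6 to 10, and Trav7-5 at 7.97, 3.81, 0, 3.21 and 0 TPM. Both were listed at 0 in every control library.

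The alpha V row with the highest mean over the 10 libraries, Trav13d-4, had its whole signal, 27.2 TPM, in library 6. Trav13n-4 followed with 6.81 TPM in library 7 and 14.4 TPM in library 9, and Trav13-1 with 16.5 TPM in library 7 and 2.72 TPM in library 9. Each cytokine library had a different leading Trav row. These were Trav13d-4 with 44.3% of the alpha V TPM in library 6, Trav13-1 with 19.4% in library 7, Trav2 with 22.3% in library 8, Trav13n-4 with 24.5% in library 9 and Trav4-4-dv10 with 36.4% in library 10. Trav4-4-dv10 carries a name shared with the delta chain and was at 9.12 TPM in library 9 and 4.54 TPM in library 10.

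Close copies bear on which row a read is given to. Of 67 Trav rows with another Trav row at 98% identity or more over their last 280 coding bases, 10 (14.9%) were above 0 in any library, against 21 of 41 (51.2%) without such a copy. By name, 20 of 46 rows with no copy letter were above 0, 6 of 34 d copies and 5 of 28 n copies. How the counting treated reads that fit several copies is not given in the sources used here, and its part in these shares was not tested. The last 90 coding bases of the 3 Trav13-4 rows show how close a near copy and a more distant one are, with differences from Trav13d-4 in capitals.
Trav13d-4 (chr14:53072763-53073274, + strand): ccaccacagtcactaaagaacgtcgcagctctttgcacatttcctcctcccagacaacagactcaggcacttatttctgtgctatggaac
Trav13-4-dv7 (chr14:53757356-53757921, + strand): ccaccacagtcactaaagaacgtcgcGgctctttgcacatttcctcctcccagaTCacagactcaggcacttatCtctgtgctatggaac
Trav13n-4 (chr14:53362267-53364106, + strand): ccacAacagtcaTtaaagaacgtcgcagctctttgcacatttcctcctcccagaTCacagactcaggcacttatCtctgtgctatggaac

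Over the 331 coding bases, Trav13-4-dv7 differed from Trav13d-4 at 7 positions and Trav13n-4 at 27. Trav13-4-dv7 was listed at 0 in every library, and Trav13d-4 and Trav13n-4 were never above 0 in the same library. Over the last 280 coding bases, on which copies were defined, Trav13-4-dv7 is 98.2% and Trav13n-4 91.8% identical to Trav13d-4. The values of Trav13d-4 and Trav13-4-dv7 are therefore uncertain. Trav13n-4 has no copy at 98% or more.

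Beta V rows were listed above 0 more widely than alpha rows. Of 22 Trbv rows, 19 (86.4%) were above 0 in any library, and none of the 22 had a copy at 98% identity or more. The 3 rows at 0 throughout were Trbv17, Trbv21 and Trbv29, named after their values were seen. Counts of Trbv rows above 0 were 9, 15, 11, 6 and 2 in cytokine libraries 6 to 10, and 0, 0, 1, 1 and 0 in control.

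Trbv5 was at 0, 0, 6.24, 0 and 0 TPM in control libraries 1 to 5. In cytokine libraries 6 to 10 it was at 6.60, 18.5, 32.5, 18.0 and 0 TPM. The groups overlapped, since library 10 listed 0 and control library 3 almost reached library 6. The means were 1.25 ± 2.79 and 15.1 ± 12.5 TPM (SD, n = 5), and the difference of 2.73 ± 0.91 (SE) on the log2(TPM + 1) scale did not pass the threshold (limma adjusted p = 0.0762). Without library 10 it did, with a difference of 3.56 (limma adjusted p = 0.00374). Over 20 other settings its adjusted p ranged from 0.00374 to 0.256.

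The other leading beta rows were listed at 0 in all control libraries and missed the filter. Trbv13-1 was at 21.7, 20.9, 8.33, 0 and 3.12 TPM in cytokine libraries 6 to 10, and with Trbv5 it was the beta row seen in most cytokine libraries, 4 of 5. Trbv16 was at 5.35, 63.9, 3.24, 0 and 0 TPM. Its cytokine mean of 14.5 TPM was 2.15 TPM without library 7. Trbv12-2 was at 0, 30.5, 14.4, 5.18 and 0 TPM, and Trbv15 at 16.5, 22.8, 6.78, 0 and 0 TPM. Library 7 was the highest for Trbv16, Trbv12-2 and Trbv15, while library 6 led for Trbv13-1 and library 8 for Trbv5.

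Within a library, the V signal was spread over several rows. The effective number of Trbv rows, the exponential of Shannon's entropy of their TPM shares, was 7.92, 10.1, 7.92, 5.00 and 1.79 in libraries 6 to 10, and the top row held 23.1% to 72.9% of the beta V TPM. For Trav it was 4.84, 11.8, 8.30, 8.08 and 2.99. Library 7, with the highest summed TPM, was the highest in both, and library 10, with the lowest, the lowest in both. Control libraries held at most 1 Trav and 1 Trbv row each, so no spread could be given for them.

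**Figure D3:**
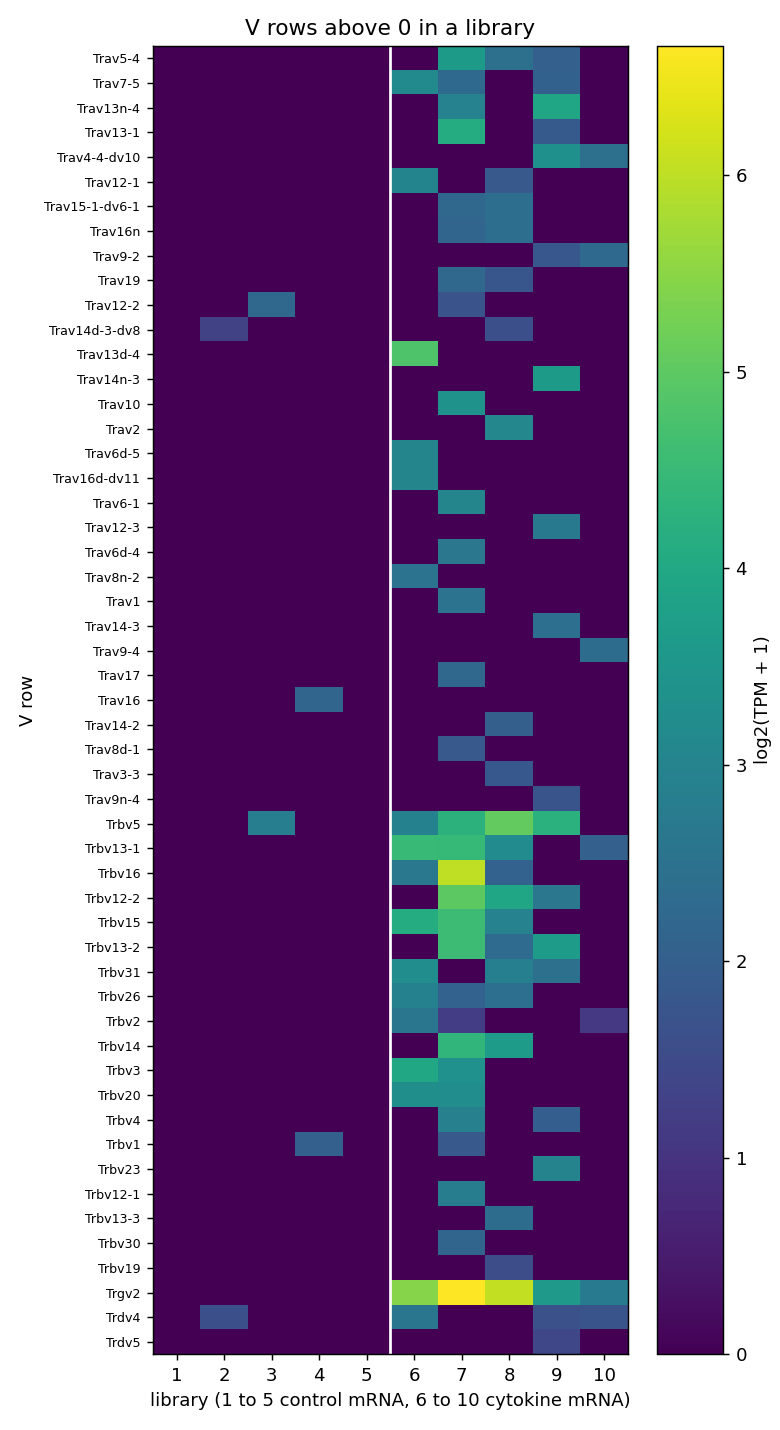
Heat map of log2(TPM + 1) for the 53 V rows above 0 in at least 1 library (rows, grouped by chain) in the 10 libraries (columns, with a white line between control and cytokine). Control columns hold 6 coloured cells in all, and Trgv2 is the row coloured in all 5 cytokine columns.

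The gamma chain V row gave the only call among the members. Trgv2 was listed at 0 in all 5 control libraries and was at 43.0, 100.03, 64.8, 11.04 and 5.63 TPM in cytokine libraries 6 to 10. The lowest value was again that of library 10. The cytokine mean was 44.9 ± 39.1 TPM (SD, n = 5), and 31.1 TPM without library 7. The difference was 4.89 ± 0.66 (SE) on the log2(TPM + 1) scale (limma adjusted p = 0.00706, higher in 5 of 5 cytokine libraries). Because control is listed at 0, the size of that difference is set partly by the pseudocount, and it was 8.14 with a pseudocount of 0.1 and 2.85 with one of 5.

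Among all 12497 genes tested, 7.41% rose and 3.02% fell. Only 2 of the 210 members were tested, so the 1 rise says little about the others. Trgv2 passed the filter only through the cytokine libraries, since it needed a TPM of 1 in 5 libraries and had it in exactly those, so that it had to differ. It was also the only member row whose groups did not overlap, against 4.24% of all genes above 0 in a library. The call remained in all 10 fits that left out 1 library. It was lost without libraries 6 and 7 together (limma adjusted p = 0.0521) and with the exact rank test (adjusted p = 0.0860). With 5 libraries per group the smallest p that the exact rank test can give is 0.00794. After adjustment that became 0.0860, so no gene could pass this test and the loss is uninformative. Over 20 other settings the adjusted p of Trgv2 ranged from 0.000307 to 0.0860.

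Other gamma V genes stand in the table under older symbols and so lie outside the rule. The 6 found through RefSeq synonyms were listed at 0 in all control libraries. Gm16602, the older name of Trgv1, was at 13.1, 9.68, 7.55, 0 and 0 TPM in cytokine libraries 6 to 10. Tcrg-V4 was at 10.3 TPM in library 7 and 4.18 TPM in library 9, Tcrg-V6 at 2.77 TPM in library 7 and 2.60 TPM in library 10, and Tcrg-V3 and Tcrg-V7 were listed at 0 throughout. Over its last 280 bases Tcrg-V3 is 93.9% identical to Trgv2, so that reads could be shared between the 2 rows. The identity of Gm16602 to Trgv2 was not computed, so sharing of reads between those rows was not examined. Trgv2 exceeded each of the 6 older-symbol rows in every cytokine library.

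The Trgv2 signal had counterparts in its gene cluster, but other gamma constant rows were also above 0 only in cytokine libraries. In the gamma locus Trgv2 is known to join to Trgj2 and the constant segment Trgc2, listed here as Tcrg-C2. Trgj2 was the only gamma J row above 0, at 9360 TPM in library 7 alone. Tcrg-C2 was listed at 0 in the control libraries and at 36.5, 317, 21.6, 5.67 and 0.981 TPM in cytokine libraries 6 to 10. It missed the filter, like Tcrg-C1, Tcrg-C3 and Tcrg-C4. Gamma constant rows could share reads where their sequences are alike, and how alike they are was not examined.

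Delta chain V rows showed little. Trdv4 was at 2.11 TPM in control library 2 and at 5.08, 0, 0, 2.16 and 2.32 TPM in cytokine libraries 6 to 10, so that the groups overlapped. Trdv5 was at 1.66 TPM in library 9, and Trdv1, Trdv2-1 and Trdv2-2 were listed at 0 throughout. Trdc, the delta constant segment, was at 0.284 TPM in control library 1, at 0, 5.07, 1.29, 0.964 and 0.137 TPM in the cytokine libraries, and otherwise at 0. Library 6 listed Trgv2 at 43.0 TPM, with Trdc at 0 and Trdv4 at 5.08 TPM, its highest value.

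Trav rows with dv in the symbol, a name shared with the delta chain, were counted as alpha. Counted so, alpha and beta V rows outweighed gamma and delta V rows in every cytokine library. In library 10 the alpha and beta sum included Trav4-4-dv10 at 4.54 TPM, and the order there depends on that assignment. Together Trav and Trbv summed to 155, 325, 131, 108 and 16.8 TPM in libraries 6 to 10. Trgv and Trdv summed to 48.0, 100.03, 64.8, 14.9 and 7.95 TPM. The gamma-delta share of V TPM was 23.6%, 23.5%, 33.1%, 12.1% and 32.2%, with a mean of 24.9% ± 8.45 (SD, n = 5). Trgv2 alone made up 70.8% to 100% of that gamma-delta sum, in library 10 and in libraries 7 and 8. With D and J rows counted beside V rows, the mean share was 11.2% ± 15.55 (SD, n = 5). That mean rests on library 7, which alone held a gamma J row, and on library 10, which held no J row. Leaving out the Trav rows with dv gave a mean share of 27.0%. With the older-symbol gamma rows added, an alternative chosen after seeing the data, it was 29.1%.

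No shift of that share between groups could be measured. Control libraries 1 and 5 listed no V row, and the share was 59.6%, 0% and 0% in libraries 2, 3 and 4, where it rests on 2 V rows each. As background, transcripts of a gamma gene do not by themselves show gamma-delta T cells.

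A list of genes known from gamma-delta and interleukin 17-producing T cells was examined beside this share. Of 9 such genes 3 could be tested, and 1 rose: Maf, a transcription factor also made by macrophages and other T cells, from 31.1 ± 4.84 to 73.1 ± 32.9 TPM (SD, n = 5; limma adjusted p = 0.0301). Il17a was listed at 0 in all 10 libraries.

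J rows reached far higher TPM than V rows. Values above 0 ranged from 1487 to 17026 TPM in J rows and from 1.16 to 100.03 TPM in V rows, so that the lowest J value lay above the highest V value. All J rows together summed to 0, 4000, 0, 8435 and 4197 TPM in the control libraries and to 57699, 39477, 86311, 19031 and 0 TPM in cytokine libraries 6 to 10. Those sums were 92.8 to 441 times the V sums in libraries 6 to 9, although V and J lie in the same mRNA. The groups overlapped because library 10 listed none. TPM divides by length, which inflates the values of very short rows. Median lengths were 60 bases for J and 376.5 for V rows, and median values above 0 were 4547.5 and 5.21 TPM. How much of that gap comes from length was not tested. The J sums are not a measure of receptor RNA.

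**Figure D4:**
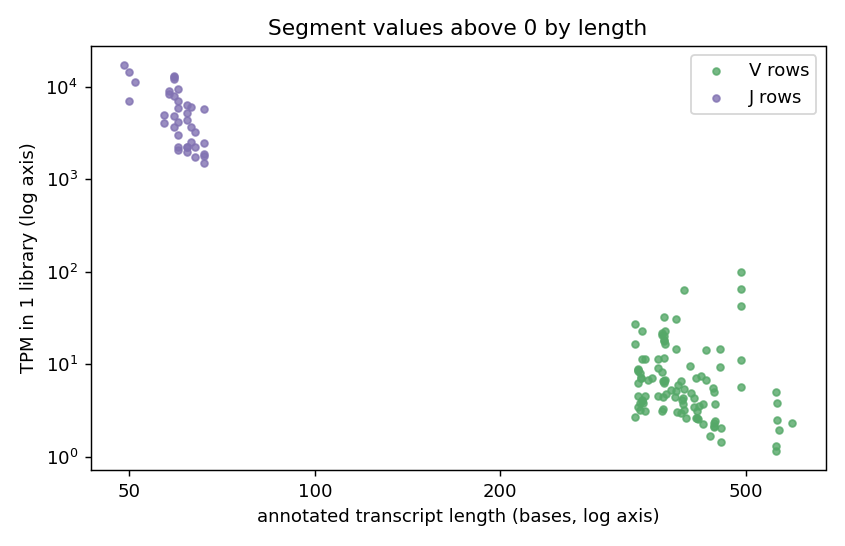
Each point is 1 segment row in 1 library with a TPM above 0, plotted by annotated transcript length (bases) and TPM, both on log axes. J rows, at most 66 bases long, lie at 1487 to 17026 TPM and V rows at 1.16 to 100.03 TPM, with no D row above 0.

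The J rows took a measurable part of whole libraries. They held 5.77%, 3.95%, 8.63% and 1.90% of all TPM in libraries 6 to 9, against at most 0.844% in control libraries. Since TPM sum to the same total in each library, every other gene was lowered by that share. V rows held 0.0426% at most. Rescaling without mitochondrial and segment rows left the Trgv2 difference at 5.13 (limma adjusted p = 0.00628).

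Among alpha J rows, 20 of 51 were above 0 in any library, 13 of them in a single library. Traj27 had the highest mean and was at 4772 TPM in control library 4, at 13113 TPM in library 6, at 7841 TPM in library 8 and otherwise at 0. Traj7 was at 12161 TPM in library 6 and 3660 TPM in library 8, and Traj30 at 12816 TPM in library 6 alone. Traj42, at 1750, 2224 and 3201 TPM in libraries 7, 8 and 9, and Traj6, at 4323, 6308 and 1944 TPM in libraries 6, 7 and 9, were the J rows above 0 in most cytokine libraries; both were named after their values were seen.

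Beta J rows were above 0 in 2 libraries only. Trbj2-3, Trbj2-1 and Trbj2-2 were at 17026, 14538 and 11348 TPM in library 8, and Trbj1-3 at 7033 TPM in library 7. The beta D rows Trbd1 and Trbd2, the delta D rows Trdd1 and Trdd2 and the delta J rows Trdj1 and Trdj2 were listed at 0 throughout. At 9 to 16 bases a D segment is shorter than a usual sequencing read, so a 0 there is no evidence that it was not used.

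Control tumours held 11 segment rows above 0, 6 of them V rows, named after their values were seen. The V rows were Trav14d-3-dv8 at 1.43 TPM and Trdv4 in library 2, Trav12-2 at 3.76 TPM and Trbv5 in library 3, and Trav16 at 3.51 TPM and Trbv1 at 3.13 TPM in library 4. The J rows were Traj3 and Traj38 in library 2, Traj4 and Traj27 in library 4, and Traj37 in library 5. No row was above 0 in more than 1 control library.

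Segments of T cell subsets with nearly fixed receptors were examined by name. Since 77 of 108 Trav and 31 of 51 Traj rows were at 0 throughout, a 0 is not particular to these subsets. Invariant natural killer T cells are known to join Trav11 to Traj18. Trav11 was listed at 0 in all 10 libraries, and Traj18 was at 1487 TPM in library 9 alone. Mucosal-associated invariant T cells join Trav1 to Traj33, and both were above 0 only in library 7, at 4.83 and 4094 TPM. Dendritic epidermal T cells of mouse skin carry Trgv5 with Trdv4. Tcrg-V5, the older name of Trgv5, was at 4.72 TPM in library 7 alone, where Trdv4 was listed at 0.

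Constant segments, which do not vary between T cells, gave a second view of the same chains. Trac, the alpha constant segment, was at 10.8, 2.66, 22.2, 11.5 and 0 TPM in control and at 542, 1574, 191, 86.9 and 22.6 TPM in cytokine libraries 6 to 10. Its difference was 4.94 ± 1.11 (SE) on the log2(TPM + 1) scale (limma adjusted p = 0.0218). The beta constant segments Trbc1 and Trbc2 differed by 3.81 ± 0.94 and 4.16 ± 0.99 (limma adjusted p = 0.0289 and 0.0260). These calls were lost in 4, 5 and 6 of the 10 fits that left out 1 library. The Trav, Trbv and Trgv2 sums, Trac, Trbc1, Trbc2 and Tcrg-C2 all had library 7 as the highest cytokine library and library 10 as the lowest.

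The alpha V sum was smaller than Trac in every library with Trac above 0. It was 11.3%, 5.40%, 17.5%, 67.5% and 55.3% of Trac in cytokine libraries 6 to 10. Library 7, with the highest Trac, had the lowest share. Control library 1 listed Trac at 10.8 TPM with no V row above 0. The beta V sum was 72.5%, 57.4%, 171%, 274% and 70.4% of the summed Trbc1 and Trbc2 TPM in libraries 6 to 10, and thus lay on both sides of the constant level. Trgv2 was at 118%, 31.5%, 299%, 195% and 574% of Tcrg-C2. The ratio of V to constant TPM thus differed between chains and between libraries.

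**Figure D5:**
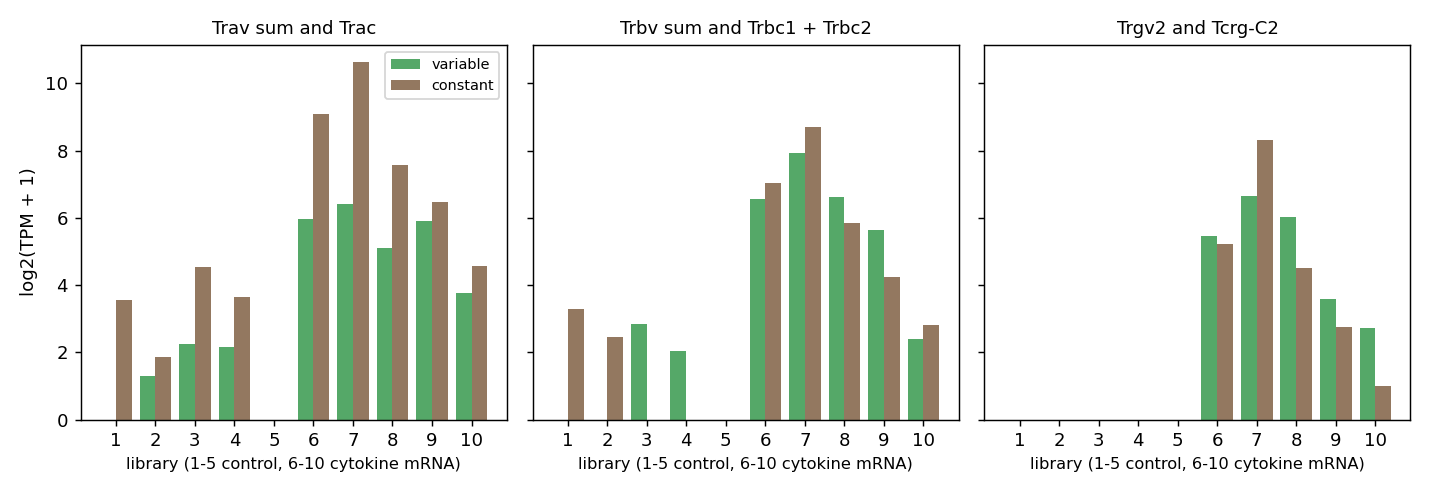
Variable (green) and constant (brown) signal of the alpha, beta and gamma chains in each library, as log2(TPM + 1), with libraries 1 to 5 control and 6 to 10 cytokine. Trac exceeds the Trav sum in all libraries where it is above 0, while the beta and gamma pairs change order between libraries.

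Genes that work with the receptor were higher in the cytokine tumours. Of 27 genes for constant segments, CD3 subunits, co-receptors and proximal signalling, 19 were tested and 16 rose (limma, 18 at an unadjusted p under 0.05). None fell, and 0 were lower at an unadjusted p under 0.05. Among the 16, 2 signalling genes passed the filter only through the cytokine libraries, so that they had to differ. The rises fell to 8 without library 6, and to 10 without control library 5 and without library 8. Without libraries 6 and 7 together 0 passed (16 at an unadjusted p under 0.05). By the exact rank test 0 passed (15 unadjusted), but no gene could pass that test at this group size. The calls of the receptor genes were made by the same 10 tumours as the segments.

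By role, 3 of 3 tested CD3 subunits rose. Cd3e, which carries the receptor's signal into the cell, differed by 5.05 ± 0.90 (SE) on the log2(TPM + 1) scale (limma adjusted p = 0.0127). The co-receptors also rose: Cd8a differed by 4.26, Cd8b1 by 3.90 and Cd4 by 2.45, and the Cd4 call was lost in 8 of the 10 fits that left out 1 library. Cd8a was at 2.67, 2.08, 0.650, 0.390 and 0 TPM in control and at 75.6, 194, 46.7, 16.1 and 4.52 TPM in cytokine libraries. Cd4 reached 1.48, 0.920, 0.985, 1.91 and 0 TPM in control and 16.7, 25.6, 13.9, 7.47 and 1.27 TPM in cytokine libraries, where library 10 lay within the control range. Among 10 tested signalling genes 7 rose, among them the tyrosine kinase Zap70, by 2.83 ± 0.49 (SE) with a limma adjusted p of 0.0121.

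Genes of receptor rearrangement, which T cells use while they mature in the thymus, stayed near 0. Rag2 was listed at 0 in all libraries, Rag1 and Dntt reached at most 0.111 and 0.235 TPM, and Ptcra 0.587 TPM.

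Markers of other lymphocytes moved with the segments in part. Of 9 NK cell genes 4 were tested and rose with limma, while 0 passed by the exact rank test (4 at an unadjusted p under 0.05). No gene could pass the exact rank test at this group size, so its adjusted result is uninformative for every list here. Among the 4 NK cell genes, Klre1 and Klra8 passed the filter only through the cytokine libraries, so that they had to differ. The summed TPM of the 9 genes was 0.147 to 5.93 in control and 13.6 to 152 in cytokine libraries. NK cells carry no rearranged receptor but can share Cd3 and constant-segment transcripts with T cells. None of 3 tested of 9 B and plasma cell genes passed with limma (2 at an unadjusted p under 0.05), nor by the exact rank test (0 unadjusted), and their summed TPM was 8.85 to 90.6 in control and 27.45 to 319 in cytokine libraries. Of 10 macrophage genes 8 rose with limma and 0 passed by the exact rank test (9 unadjusted), with sums of 150 to 683 and 848 to 16012 TPM. None of the defining genes of the NK, B cell or macrophage lists was at 0 in all libraries, and their part in the segment values was not tested.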

How the data were processed

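RNA of 10 tumours, 5 per group by their titles, was sequenced as polyA RNA from stranded NuGEN libraries, per the labels' protocols. The authors deposited 1 table of TPM with a column per library, with the same total in each column. STAR and the build GRCh38 are named in the submitters' processing notes. GRCh38 is a human build although the rows are mouse genes, so the table's build was not settled. For the annotation, counting program, use of strand and filters, nothing is stated in the labels. TPM keep no depth, so no counting interval can be given, and a row listed at 0 may lie below what a library could show.

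The 12497 genes that reached 1 TPM in 5 or more libraries were compared as log2(TPM + 1), with a pseudocount of 1, by limma version 3.58.1 in R version 4.3.3 (eBayes with trend, 2-sided). P-values were adjusted by Benjamini-Hochberg across those genes, with calls at an adjusted p under 0.05, and the step was tested on simulated data. Sums, counts and shares over the segments are given without a test. V copies were aligned with Biopython version 1.88. Sequences and lengths come from the first listed GENCODE transcript of each symbol. The members and lists were chosen with earlier results of these data known. Members named are those called, the 5 V and 3 J rows per chain with the highest mean, D rows, and segments of invariant and skin T cells; others were named after their values were seen. Alternatives tried were other pseudocounts, filters, scalings, variance settings, an exact rank test, other rows and libraries left out, with the tested genes kept fixed in the last.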

Additional observations from a re-analysis of the deposited data

Results flagged for a closer look

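Segment counts, V and J sums by chain, the leading V and J rows named above and the constant, CD3 and co-receptor genes were examined for a library far from the others of its group. Of 59 groups 9 held one by Dixon's test, which takes the gap to the next value as a share of the range. Its chance rate of about 1 in 20 is for independent, normally distributed values. These groups share libraries and many of their TPM are 0, so the 9 cannot be set against that rate. Quantities above 0 in fewer than 2 libraries of a group were left out. Cytokine library 7 was far above the other 4 in 5 constant segments: Trbc1 at 176.6 TPM against at most 51.8, Trdc at 5.07 TPM against at most 1.29, Tcrg-C1 at 43.3 TPM against at most 6.09, Tcrg-C2 at 317 TPM against at most 36.5, and Tcrg-C4 at 64.0 TPM against at most 13.3. Control library 1 was far above the other controls in Trbc2, at 7.10 TPM against at most 1.49. Among the segments, library 7 was far above the other cytokine libraries in Trav13-1, at 16.5 TPM against at most 2.72, and in Trbv16, at 63.9 TPM against at most 5.35. Library 8 was far above them in summed Trbj TPM, at 42912 against at most 7033. Neither the segment counts nor the V sums had such a library.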

How the results depend on the processing

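Of the members, Trgv2 alone was called. It passed the filter only through the cytokine libraries, so that it had to differ, and a kept call adds no support. The count of members called stayed at 1 in 17 other settings. It was 2 with library quality weights, with Trbv5 added, and 0 with the exact rank test (2 at an unadjusted p under 0.05) and without libraries 6 and 7 (1 unadjusted). No gene could pass the exact rank test at this group size, so its counts of 0 are uninformative. With 1 library left out the count of members called ranged from 1 to 2, the 2 being without library 10. Of the 27 receptor genes, 16 rose, against 7 of only 9 tested with a filter at a TPM of 5, 0 with the exact rank test, 0 without libraries 6 and 7, and 8 to 18 with 1 library left out. The mean gamma-delta share of 24.9% was 11.2% ± 15.55 (SD) when J rows were counted with V rows, a mean resting on libraries 7 and 10. Cytokine means of the segment counts and of the V and whole sums moved by less than 1 SD in all settings tried. With the segment threshold at a TPM of at least 1 the counts were the same, and no member symbol marks a pseudogene, so that alternative gave no other value. No paired analysis was possible because the groups share no replicate numbers. Why values changed between settings was not tested.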
